A study of Mus musculus with 57 samples.

Results

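Ly6C-low and Kupffer-niche recruited macrophages were both sorted from livers of C57BL/6J mice fed a NASH diet, which causes fatty, inflamed and scarred liver. Ly6C-low recruited macrophages were gated as CD11b-Hi Ly6C-Lo, and Kupffer-niche recruited macrophages as F4/80-Hi Tim4-Neg. Each population had 2 RNA sequencing libraries, so the comparison used 4 of the 57 libraries of the series, chosen by their labels, across 24941 genes. The transcript with the highest total count stood for each gene. The labels give no length of diet for these groups. They number the replicates without saying that they came from separate animals, so the p-values measure only a spread between libraries. That spread was estimated from 12 libraries of 6 sorted groups fitted together, and not from these 4 alone. Livers were perfused and digested with 1 µM flavopiridol, a transcription blocker. Total counts were 22707571 and 14397719 in Ly6C-low cells and 18312295 and 14996836 in Kupffer-niche cells.

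Kupffer cells are the resident macrophages of the liver. They line the sinusoids, clear dying cells, bacteria and old red cells, and return iron and lipid to the circulation. When some of them die, blood monocytes enter the empty niche and take on much of the same program under signals that include Notch ligands and BMP proteins from neighbouring cells. Other recruited cells keep high CD11b, a gate that can also hold conventional dendritic cells, which take antigen to T cells. The comparison asks how recruited cells of the Kupffer niche differ from Ly6C-low recruited cells of the same diseased liver.

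Of 14407 genes that passed a filter on low counts, 4804 (33.3%) differed between the populations at an adjusted p under 0.05 (edgeR quasi-likelihood test, Benjamini-Hochberg adjustment over all genes). Of these, 2202 (15.3% of the genes tested) were higher and 2602 (18.1%) lower in Ly6C-low cells. With Kupffer-niche replicate 1 left out, 2851 genes were called, 1288 of them higher and 1563 lower. With Ly6C-low replicate 1 or Kupffer-niche replicate 2 left out, 1465 and 1409 genes were called higher. Most called differences were small, with a median of 1.89-fold among higher genes and 1.98-fold among lower genes. A difference of at least 4-fold was found for 834 genes (5.79%), 451 of them higher (3.13%) and 383 lower (2.66%), and one of at least 32-fold for 42 and 36 genes. No called gene had overlapping libraries between the populations, which with 2 libraries each nearly follows from the call and adds no support to it. The median log2 difference of all genes, Ly6C-low minus Kupffer-niche, was -0.01. Of the calls, 45.8% were higher with count scaling and 75.6% on the deposited TPM scale (transcript levels corrected for length) with a pseudocount of 1, where the median of all genes moved to 0.22. With a pseudocount of 0.1 the share was 75.1% and the median 0.30, so small differences depend on the scale.

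**Figure D1:**
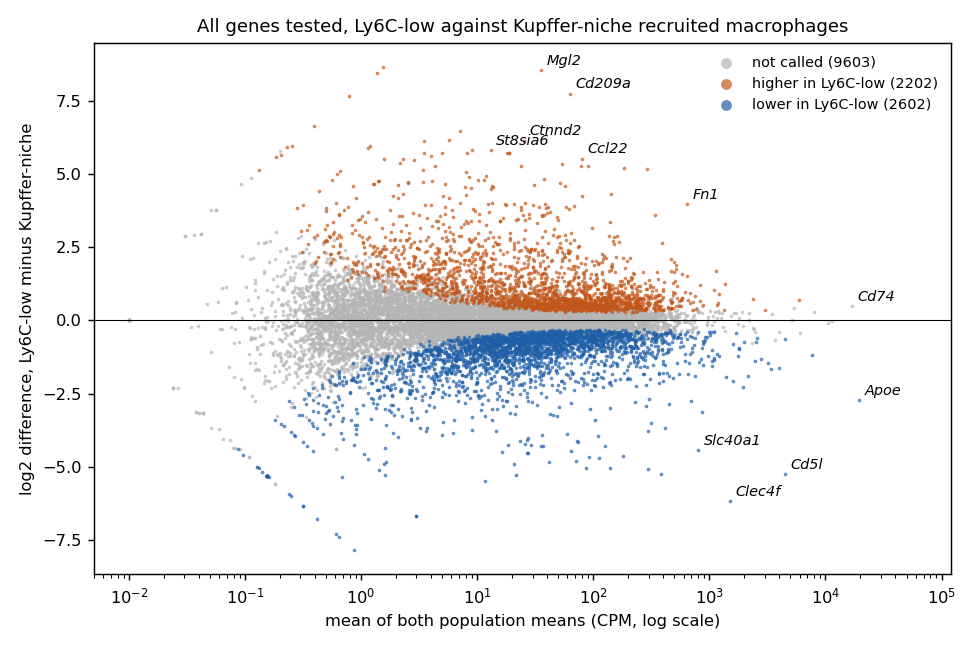
Each point is 1 of 14407 genes, placed by its mean level (CPM, log axis) and by the log2 difference of Ly6C-low minus Kupffer-niche cells. Coloured points are the 2202 genes called higher and the 2602 called lower in Ly6C-low cells, with Mgl2 (log2 8.54) at one end and Clec4f (log2 -6.17) at the other.

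The genes of the sort followed the gates in part, which is a check and not a result. Adgre1, which encodes F4/80, had 656 and 505 CPM in Ly6C-low cells and 1512 and 1527 CPM in Kupffer-niche cells (CPM, counts scaled to library size). Itgam, which encodes CD11b, had 719 and 903 CPM in Ly6C-low cells against 151 and 284 CPM in Kupffer-niche cells. Timd4 (Tim4) had 10.4 and 3.11 CPM in Ly6C-low cells and 12.6 and 5.48 CPM in Kupffer-niche cells (adjusted p 0.609). Ly6c2 was under 5 CPM in all 4 libraries. Csf1r, the receptor of the main macrophage growth factor, had 3579 and 3479 CPM in Ly6C-low cells against 5657 and 5273 CPM in Kupffer-niche cells. Cd68, a macrophage lysosomal protein, had 1081 and 915 CPM in Ly6C-low cells and 1178 and 1031 CPM in Kupffer-niche cells and was not called. Both populations thus held abundant macrophage transcripts.

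Most genes of a Kupffer cell identity list were lower in Ly6C-low cells than in Kupffer-niche cells. Of 22 such genes, 16 were lower in Ly6C-low cells, 15 of them at least 4-fold, and 2 were higher. The median log2 difference was -4.37. The list was chosen with earlier results of these data known and holds many of the genes of largest decrease. Its count and median therefore describe these genes and are no independent support. Clec4f, a C-type lectin found on mouse Kupffer cells, had 45.2 and 38 CPM in Ly6C-low cells and 3316 and 2670 CPM in Kupffer-niche cells. It was 71.9-fold lower in Ly6C-low cells (log2 -6.17 ± 0.30 SE, adjusted p 3.79e-07). Cd5l, a secreted survival protein of tissue macrophages, had 305 and 158 CPM in Ly6C-low cells against 9553 and 8009 CPM in Kupffer-niche cells (37.9-fold lower). Vsig4, a complement receptor that captures bacteria, had 23.6 and 15.7 CPM in Ly6C-low cells against 710 and 786 CPM in Kupffer-niche cells (37.8-fold lower). The lowest Kupffer-niche value of each of these genes was many times the highest Ly6C-low value. Folr2, a folate receptor, was 33.7-fold lower, Clec1b, a C-type lectin receptor, 19.7-fold lower, and Cdh5, an adhesion protein better known from endothelium, 11.3-fold lower. Marco, a scavenger receptor, had 19.9 and 1.08 CPM in Ly6C-low cells and 15.6 and 15.2 CPM in Kupffer-niche cells, so the groups overlapped. Cd163, the haemoglobin receptor, had 25.8 and 13.3 CPM in Ly6C-low cells against 22.7 and 15.2 CPM in Kupffer-niche cells (log2 0.06 ± 0.49). Timd4 and Ptgis were the other 2 genes not called. The 2 higher genes, Lyve1 and Gpr182, are also sinusoidal endothelial markers.

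Some genes of largest change are better known from other tissues. Of these, Pcolce2, Fabp7, Kcna2 and Slc16a9 are also members of the Kupffer cell identity list above. Ccdc148, a coiled-coil protein, had 0.366 and 0.698 CPM in Ly6C-low cells and 18.9 and 26.9 CPM in Kupffer-niche cells. Pcolce2, an enhancer of collagen processing, was 39-fold lower. Fabp7, a fatty acid binding protein best known from brain, had 5.69 and 4.38 CPM in Ly6C-low cells against 175 and 160 CPM in Kupffer-niche cells. In Kupffer cells of NASH and healthy mice, Fabp7 averaged 255 and 199 CPM, and Ccdc148 52.9 and 69.7 CPM. The potassium channel genes Kcnj16 and Kcna2 were 29.6-fold and 26.1-fold lower, and Slc16a9, a transporter of carnitine and creatine, 28.7-fold lower. None of these calls ended with 1 library left out.

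**Figure D2:**
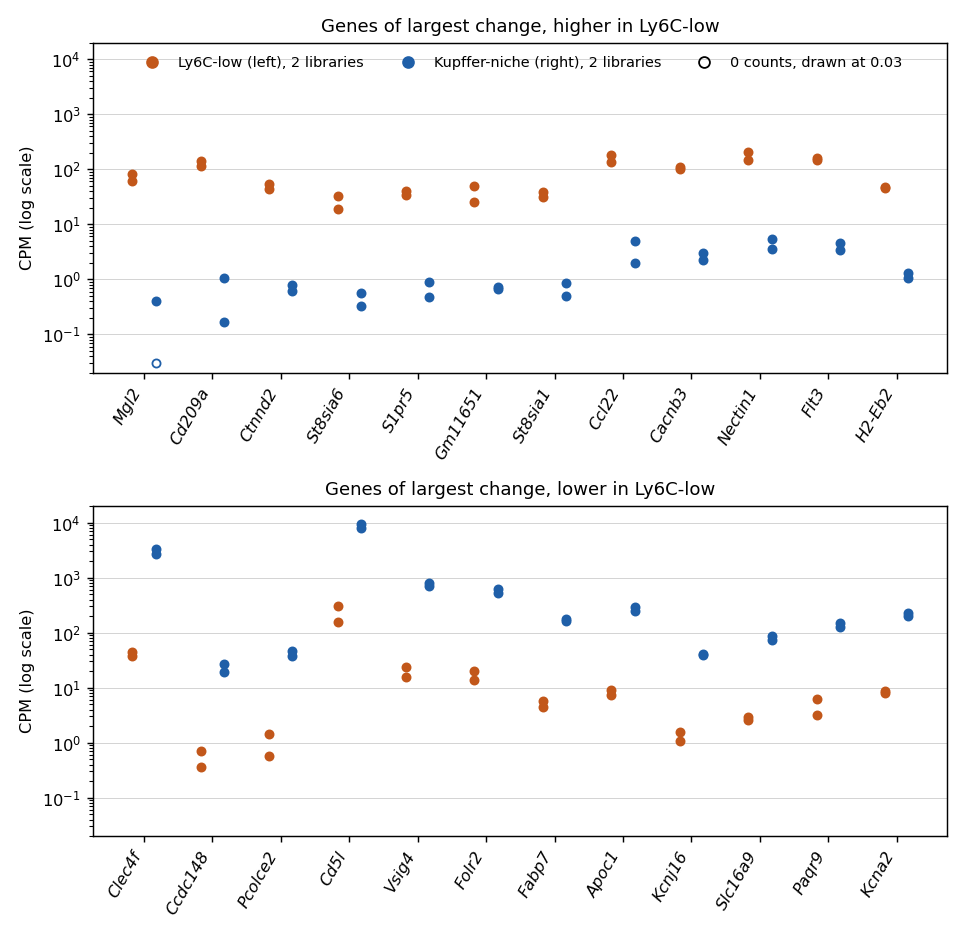
CPM on a log axis in each library for the 12 genes of largest change in either direction among those reaching 20 CPM, with Ly6C-low libraries to the left of Kupffer-niche libraries for each gene. The populations do not overlap for any gene shown, which the choice of genes required. Mgl2 had 0 counts in 1 Kupffer-niche library, drawn as an open symbol.

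The 2 genes of largest change in the other direction encode lectins. Mgl2, a galactose-binding lectin of type 2 dendritic cells and some macrophages, had 60.8 and 81.2 CPM in Ly6C-low cells and 0 and 0.401 CPM in Kupffer-niche cells (log2 8.54 ± 0.55, adjusted p 1.65e-06). Cd209a, a C-type lectin of monocyte-derived and type 2 dendritic cells, had 113 and 139 CPM in Ly6C-low cells against 0.166 and 1.07 CPM in Kupffer-niche cells (214-fold higher). It belongs to a family of near copies, among which counting can split reads. Of all genes, 6 were over 20 CPM in Ly6C-low cells and under 1 CPM in Kupffer-niche cells, namely Mgl2, Ctnnd2, Gm11651, S1pr5, St8sia1 and Kctd14, and 0 met that rule the other way round. Ctnnd2, a catenin of cell junctions, was 70.1-fold higher. St8sia6 and St8sia1, which add sialic acid, were 56.2-fold and 52.3-fold higher. Cbfa2t3, a transcriptional co-repressor named here after its values were seen, had 353 and 359 CPM in Ly6C-low cells against 9.6 and 9.9 CPM in Kupffer-niche cells and the lowest adjusted p of all genes (2.35e-08).

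Promoter windows were read for the genes called at least 4-fold apart, since many moved together. RefSeq windows (GRCm38.p6) that run from 250 bases before to 50 after a transcript start were matched to 322 of the 451 higher genes, 271 of the 383 lower genes and 10765 of all 14407 genes. The letters GAGGAAGT, a core of PU.1 sites, were present on either strand in 7.76% of the windows of higher genes, 3.69% of those of lower genes and 3.42% of all windows. The letters AGGTCA, a core read by nuclear receptors, were present in 13.7% of the windows of higher genes, 18.8% of those of lower genes and 12.3% of all windows. In the same order of windows, a GC box (CCGCCC) was present in 48.1%, 49.4% and 62.6%, and a TATA box (TATAAA) in 10.9%, 11.8% and 7.56%. The interferon regulatory factor core GAAANNGAA was present in 7.76%, 8.49% and 7.39%, and the RUNX core TGTGGTT in 4.35%, 7.38% and 3.88%. These shares carry no test, and a match is not a bound site. The windows of the 2 genes of largest change in each direction that had a match, at least 20 CPM and the same start as the deposited transcript follow, with the matched letters in capitals. Cbfa2t3 and Kmo hold GAGGAAGT, and Clec4f and Fabp7 hold AGGTCA as its reverse complement TGACCT.
Cbfa2t3, chr8:122699060-122699359, minus strand: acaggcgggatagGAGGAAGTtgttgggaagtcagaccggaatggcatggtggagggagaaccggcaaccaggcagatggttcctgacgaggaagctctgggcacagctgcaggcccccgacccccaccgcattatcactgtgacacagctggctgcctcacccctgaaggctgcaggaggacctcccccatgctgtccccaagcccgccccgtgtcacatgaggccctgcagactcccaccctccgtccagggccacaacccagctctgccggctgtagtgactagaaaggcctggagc
Kmo, chr1:175631943-175632242, plus strand: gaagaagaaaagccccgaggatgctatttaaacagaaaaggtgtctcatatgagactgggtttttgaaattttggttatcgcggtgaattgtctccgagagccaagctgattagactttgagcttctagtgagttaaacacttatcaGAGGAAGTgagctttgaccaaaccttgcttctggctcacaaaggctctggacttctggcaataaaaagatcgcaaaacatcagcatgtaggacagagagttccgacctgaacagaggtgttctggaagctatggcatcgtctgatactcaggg
Clec4f, chr6:83656067-83656366, minus strand: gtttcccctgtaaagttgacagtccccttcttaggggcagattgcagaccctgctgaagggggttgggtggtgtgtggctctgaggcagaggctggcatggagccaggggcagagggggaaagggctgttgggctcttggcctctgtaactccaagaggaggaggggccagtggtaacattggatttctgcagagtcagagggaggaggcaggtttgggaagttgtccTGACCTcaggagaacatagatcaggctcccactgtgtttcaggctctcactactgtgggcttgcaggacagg
Fabp7, chr10:57784673-57784972, plus strand: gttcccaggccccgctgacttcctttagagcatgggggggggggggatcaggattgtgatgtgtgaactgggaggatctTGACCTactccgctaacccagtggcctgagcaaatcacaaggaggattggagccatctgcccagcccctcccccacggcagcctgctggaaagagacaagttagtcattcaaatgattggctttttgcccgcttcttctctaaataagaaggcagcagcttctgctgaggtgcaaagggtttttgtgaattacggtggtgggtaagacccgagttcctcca
The match starts at base 14 of 300 in Cbfa2t3, base 148 in Kmo, base 229 in Clec4f and base 80 in Fabp7. Of the other motifs searched, these windows held 1 GC box, in Cbfa2t3, which does not overlap the capitals.

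Transcription factors of Kupffer cells were mostly lower in Ly6C-low cells. Of 15 such factors, 11 were lower and 1 higher, with a median log2 difference of -1.20. Nr1h3, which encodes the oxysterol receptor LXRα, had 247 and 180 CPM in Ly6C-low cells and 664 and 519 CPM in Kupffer-niche cells (2.77-fold lower). Its partner Rxra had 165 and 142 CPM in Ly6C-low cells against 674 and 623 CPM in Kupffer-niche cells (4.21-fold lower). Tfec, a myeloid factor of the MiT family, was 5.51-fold lower (adjusted p 6.78e-07). Without Ly6C-low replicate 2, 5 factors were lower, and the calls of Id1, Id3, Spic, Maf and Srebf1 were among those that ended. Without Kupffer-niche replicate 1, 7 were lower and the higher call, of Ppard, ended (log2 0.49). Zeb2, a factor shared by tissue macrophages, had 504 and 487 CPM in Ly6C-low cells and 503 and 493 CPM in Kupffer-niche cells (log2 -0.01 ± 0.16).

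Factors of dendritic cells and monocytes were higher more often, at 13 of 20 against 5 lower (median log2 1.21). The number lower was 2 without Ly6C-low replicate 2 and 2 without Kupffer-niche replicate 1. Zbtb46, which marks the conventional dendritic cell lineage, had 26.8 and 24.1 CPM in Ly6C-low cells and 1.05 and 1.2 CPM in Kupffer-niche cells (22.5-fold higher). Irf4, a factor that type 2 dendritic cells need, was 5.34-fold higher, Klf4 6.78-fold, Runx3 4.37-fold, Spib 4.96-fold and Bcl11a 11.9-fold higher. Irf8 and Batf3, factors of type 1 dendritic cells, were 1.66-fold and 2.2-fold lower. Irf8 had 271 and 231 CPM in Ly6C-low cells against 431 and 400 CPM in Kupffer-niche cells.

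Dendritic cell lists differed in direction. All 12 genes shared by conventional dendritic cells were higher in Ly6C-low cells (median log2 3.53). Of 12 type 2 genes, 8 were higher (median log2 1.93), where 15.3% of all genes tested were called higher. The dendritic cell lists, mature genes included, were chosen with earlier results of these data known, so their counts are no independent support. Flt3, the growth factor receptor of dendritic cells and their precursors, had 148 and 159 CPM in Ly6C-low cells and 3.48 and 4.48 CPM in Kupffer-niche cells (38.7-fold higher). Kmo, a tryptophan catabolic enzyme, was 28.5-fold higher, the peptidase gene Dpp4 14.9-fold, the adhesion gene Jaml 13.1-fold and the protease gene Napsa 10.3-fold higher. Itgax (CD11c) had 1483 and 2025 CPM in Ly6C-low cells against 513 and 568 CPM in Kupffer-niche cells (3.25-fold higher). Of 11 type 1 dendritic cell genes, 3 were higher and 5 lower (median log2 -0.66). Clec9a, the dead-cell receptor of type 1 dendritic cells, had 22.8 and 22.1 CPM in Ly6C-low cells and 39.6 and 42.5 CPM in Kupffer-niche cells (1.83-fold lower). Xcr1, their chemokine receptor, was under 3 CPM in all 4 libraries. Kupffer cells of NASH and healthy mice also held Clec9a (means of 37.8 and 69.1 CPM) and Batf3 (46.9 and 41.7 CPM). The cell source of RNA from the type 1 list was not tested. Sirpa, a surface protein of type 2 dendritic cells and macrophages alike, was not called (log2 -0.26 ± 0.19). In bulk RNA, fewer cells of a type and less RNA per cell cannot be told apart.

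Genes of mature, migratory dendritic cells were higher at 9 of 15, with 1 lower (median log2 2.04). Ccr7, the receptor that leads dendritic cells to lymph nodes, had 67.2 and 50.8 CPM in Ly6C-low cells and 2.98 and 1.74 CPM in Kupffer-niche cells (24.7-fold higher). Fscn1, an actin bundler, had 140 and 165 CPM in Ly6C-low cells against 4.74 and 11.3 CPM in Kupffer-niche cells (19.2-fold higher). Ccl22, a ligand of CCR4, had 134 and 179 CPM in Ly6C-low cells against 1.99 and 4.95 CPM in Kupffer-niche cells (45.9-fold higher). No library of one population reached the range of the other for these 3 genes, as for all called genes. Cacnb3, a calcium channel subunit, was 39.9-fold higher and Il12b, a subunit of interleukins 12 and 23, 5.34-fold higher. Cd40 and Cd83, both induced on maturation, were not called (log2 -0.35 ± 0.29 and log2 -0.29 ± 0.22). Il15 was the lower member, and its call ended without Ly6C-low replicate 1 (log2 -0.85) or Kupffer-niche replicate 1 (log2 -0.73).

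**Figure D3:**
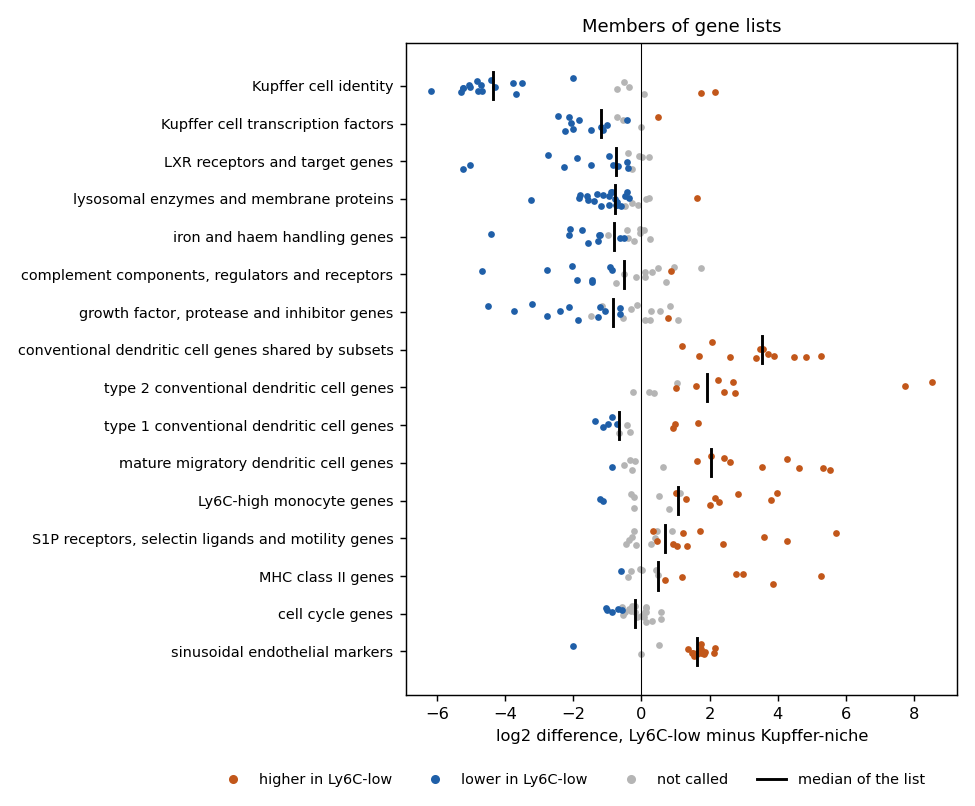
Log2 differences, Ly6C-low minus Kupffer-niche cells, of the tested members of 16 gene lists. Each point is a gene coloured by its call, and the bar is the list's median, which runs from -4.37 for Kupffer cell identity genes to 3.53 for genes shared by conventional dendritic cells.

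Antigen presentation genes did not move as a block. Of 13 MHC class II genes, 6 were higher and 1 lower (median log2 0.49). H2-Ab1, a classical chain, had 4909 and 5466 CPM in Ly6C-low cells and 4838 and 5491 CPM in Kupffer-niche cells (log2 0.01 ± 0.29). Cd74, the invariant chain, had 20594 and 19352 CPM in Ly6C-low cells against 13404 and 15019 CPM in Kupffer-niche cells and was not called (adjusted p 0.127). H2-Eb2, a beta chain gene, had 45.7 and 47.4 CPM in Ly6C-low cells against 1.32 and 1.07 CPM in Kupffer-niche cells (38.4-fold higher). H2-Oa and H2-Ob, chains of an inhibitor of peptide loading, were 14.5-fold and 7.82-fold higher. H2-DMb2 was 6.88-fold higher, while its near copy H2-DMb1 and their partner H2-DMa were not called (log2 -0.40 ± 0.22 and log2 -0.05 ± 0.16), and reads of near copies can be split in counting. Ciita, the master regulator of the class, had 755 and 720 CPM in Ly6C-low cells and 319 and 329 CPM in Kupffer-niche cells (2.28-fold higher). The call of H2-Aa ended with any of the 4 libraries left out (log2 0.78, 0.60, 0.58 and 0.83 without Ly6C-low replicates 1 and 2 and Kupffer-niche replicates 1 and 2).

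Ligands and receptors that meet T cells were split as well, with 7 of 18 higher and 3 lower. Of all genes tested, 15.3% were called higher and 18.1% lower. Icosl, the ligand of ICOS, had 227 and 181 CPM in Ly6C-low cells against 48.8 and 39.1 CPM in Kupffer-niche cells (4.64-fold higher). Btla, an inhibitory receptor, was 12.7-fold higher and Pdcd1lg2 (PD-L2) 6.84-fold higher. Cd86 had 77.8 and 98.5 CPM in Ly6C-low cells and 157 and 174 CPM in Kupffer-niche cells (1.88-fold lower), and Cd80 and Cd274 (PD-L1) were not called (log2 0.07 ± 0.19 and log2 0.14 ± 0.19).

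Monocyte genes were higher in part, where 15.3% of all genes tested were called higher and 18.1% lower. Of 16 Ly6C-high monocyte genes, 8 were higher and 2 lower (median log2 1.08). The lower calls were Ly6c2, which ended without Kupffer-niche replicate 1 (log2 -1.02), and Mmp8, which ended without Ly6C-low replicate 2 (log2 -0.91), Kupffer-niche replicate 1 (log2 -1.19) or Kupffer-niche replicate 2 (log2 -1.25). Fn1 (fibronectin) had 959 and 1441 CPM in Ly6C-low cells and 52.6 and 101 CPM in Kupffer-niche cells (15.6-fold higher). S100a4 and S100a6, calcium-binding proteins, were 14.1-fold and 7.15-fold higher. Ccr2, the receptor for CCL2, had 717 and 859 CPM in Ly6C-low cells against 173 and 223 CPM in Kupffer-niche cells (3.99-fold higher). Vcan, Chil3 and Plac8, which circulating Ly6C-high monocytes express, were not called (log2 -0.23 ± 0.27, log2 0.51 ± 0.30 and log2 -0.31 ± 0.27).

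Of 15 genes of Ly6C-low monocytes, 5 were higher and 3 lower (median log2 0.50), to be read against 15.3% and 18.1% of all genes. Ace, which encodes angiotensin-converting enzyme, had 349 and 790 CPM in Ly6C-low cells and 15 and 16.9 CPM in Kupffer-niche cells (35.7-fold higher). Spn (CD43) was 7.3-fold higher and the adhesion gene Ceacam1 7.5-fold higher. Treml4, a receptor of the TREM family, was 2.75-fold lower, and Cx3cr1, the fractalkine receptor, was not called (log2 0.50 ± 0.23). The lower calls of Ear2 and Apoc2 ended without Ly6C-low replicate 1 (log2 -0.36 and -0.46) or Kupffer-niche replicate 1 (log2 -0.18 and -0.89), and that of Apoc2 also without Kupffer-niche replicate 2 (log2 -0.74).

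Genes of movement and adhesion were more often higher, where 15.3% of all genes tested were called higher and 18.1% lower. Of 20 sphingosine-phosphate receptor, selectin ligand and motility genes, 11 were higher (median log2 0.69). S1pr5, a sphingosine-phosphate receptor, had 34.1 and 39.7 CPM in Ly6C-low cells and 0.883 and 0.468 CPM in Kupffer-niche cells (52.8-fold higher). Lsp1, an actin-binding protein of leukocytes, had 605 and 654 CPM in Ly6C-low cells against 51.5 and 53.3 CPM in Kupffer-niche cells (12-fold higher). Gpr183, an oxysterol receptor that positions dendritic cells, was 5.19-fold higher. Among 23 integrin genes, 9 were higher, Itgam of the sort included, and 2 lower. Itgb7 and its partner Itga4 were 6.61-fold and 2.49-fold higher, while Itga9 had 218 and 210 CPM in Ly6C-low cells and 596 and 621 CPM in Kupffer-niche cells (2.85-fold lower).

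Receptors and targets of niche signals were called in both directions, at shares to be read against the 33.3% called of all genes. The BMP receptor gene Acvrl1 (ALK1) had 99.6 and 75.8 CPM in Ly6C-low cells and 195 and 185 CPM in Kupffer-niche cells (2.16-fold lower), and Smad6, a target and inhibitor of BMP signals, was 2.29-fold lower. The TGF-β co-receptor genes Tgfbr3 and Eng were 5.14-fold and 1.94-fold higher. Sinusoidal endothelial markers were mostly higher in Ly6C-low cells too (13 of 16). The part of endothelial RNA in these niche signal genes was not tested. Of 23 genes of both pathways, 7 were higher and 6 lower, against 4 and 3 without Ly6C-low replicate 2, 4 and 2 without Kupffer-niche replicate 1 and 12 and 2 on the TPM scale. Of 16 Notch pathway genes, 4 were higher and 1 lower (2 lower without Kupffer-niche replicate 2, 7 higher on the TPM scale with a pseudocount of 1), a share near that of all genes. Rbpj, the nuclear effector, had 83.3 and 80 CPM in Ly6C-low cells against 21.6 and 25.1 CPM in Kupffer-niche cells (3.5-fold higher), and Notch2 was 2.55-fold higher. Hey1, a target gene of Notch and BMP signals, had 4.02 and 2.16 CPM in Ly6C-low cells against 54.7 and 48.9 CPM in Kupffer-niche cells (16.3-fold lower). Hes1, another target, had 14.3 and 6.6 CPM in Ly6C-low cells and 39.3 and 14.5 CPM in Kupffer-niche cells and was not called (adjusted p 0.0837). Kit, the stem cell factor receptor, had 52.6 and 79.7 CPM in Ly6C-low cells against 3.86 and 7.22 CPM in Kupffer-niche cells (12-fold higher).

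Lipid handling genes of the LXR pathway were lower. Of 16 LXR receptor and target genes, 11 were lower (median log2 -0.75). Without Ly6C-low replicate 1, Kupffer-niche replicate 1 or Kupffer-niche replicate 2, 7 were lower, and the TPM scale called 7 lower and 1 higher. Apoe, the lipoprotein that carries cholesterol out of macrophages, had 5311 and 4927 CPM in Ly6C-low cells and 31847 and 36136 CPM in Kupffer-niche cells (6.64-fold lower). Apoc1, a related apolipoprotein, was 32.4-fold lower, the phospholipid transfer protein gene Pltp 4.86-fold and the cholesterol exporter gene Abca1 1.91-fold lower. Of 17 lipid-associated macrophage genes, 2 were higher and 5 lower (median log2 -0.24), to be read against 15.3% and 18.1% of all genes. Without Kupffer-niche replicate 2, 3 were lower, and without Kupffer-niche replicate 1, 1 was higher. Trem2, a lipid receptor, had 166 and 159 CPM in Ly6C-low cells against 537 and 619 CPM in Kupffer-niche cells (3.56-fold lower). Gpnmb, Cd9 and Spp1, others of that list, were not called (log2 -0.34 ± 0.36, log2 0.12 ± 0.26 and log2 0.57 ± 0.50).

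Clearance genes were lower in part, where 15.3% of all genes tested were called higher and 18.1% lower. Of 16 genes for the uptake of dying cells, 7 were lower and 3 higher (median log2 -0.45), and the TPM scale called 3 lower. Mertk, the receptor through which macrophages engulf dying cells, had 204 and 171 CPM in Ly6C-low cells and 689 and 716 CPM in Kupffer-niche cells (3.74-fold lower), whereas its relative Axl was not called (log2 -0.30 ± 0.13). Itgb3, an integrin chain that binds bridged dying cells, was 4.68-fold higher and Elmo1, which drives the engulfing cytoskeleton, 1.7-fold higher. Of 18 iron and haem genes, 10 were lower (median log2 -0.81). Slc40a1, the iron exporter ferroportin, had 72 and 70.2 CPM in Ly6C-low cells against 1429 and 1647 CPM in Kupffer-niche cells (21.6-fold lower). Hmox1, which breaks down haem, was 4.41-fold lower and Blvrb, a biliverdin reductase, 4.32-fold lower. Of 19 complement genes, 8 were lower and 1 higher (median log2 -0.50). The C1q chain genes C1qa, C1qb and C1qc were 4.13-fold, 2.73-fold and 3.74-fold lower, the properdin gene Cfp 6.76-fold and C6, a part of the membrane attack complex, 25.4-fold lower. C3 was the higher one, and its call ended without Ly6C-low replicate 1 (log2 0.95), Ly6C-low replicate 2 (log2 0.75), Kupffer-niche replicate 1 (log2 0.96) or Kupffer-niche replicate 2 (log2 0.77).

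Lysosomal genes moved together by smaller amounts. Of 27 lysosomal genes, 21 were lower and 1 higher (median log2 -0.79). The higher call, of Ctsk, ended without Ly6C-low replicate 2 (log2 1.43) or Kupffer-niche replicate 1 (log2 1.28). Ctsd, an aspartic protease, had 2005 and 1902 CPM in Ly6C-low cells and 5982 and 5932 CPM in Kupffer-niche cells (3.05-fold lower). Ctsf, a cysteine protease, had 8.62 and 8.44 CPM in Ly6C-low cells against 86.3 and 75 CPM in Kupffer-niche cells (9.45-fold lower). Psap, the saposin precursor, was not called (log2 -0.09 ± 0.13).

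Secreted factors differed by kind, at shares to be read against the 15.3% of all genes called higher and the 18.1% called lower. Of 24 growth factor, protease and inhibitor genes, 12 were lower and 1 higher (median log2 -0.85). Igf1, a growth factor, had 60.2 and 58.3 CPM in Ly6C-low cells and 367 and 439 CPM in Kupffer-niche cells (6.8-fold lower). Pdgfc, a platelet-derived growth factor, was 9.2-fold lower, Hbegf, an EGF receptor ligand, 13.3-fold and the matrix protease genes Mmp27 and Mmp13 22.8-fold and 4.38-fold lower. The higher call, of Adam8, ended without Ly6C-low replicate 1 (log2 0.63), Kupffer-niche replicate 1 (log2 0.86) or Kupffer-niche replicate 2 (log2 0.73). Of 20 cytokine and inflammasome genes, 2 were higher and 8 lower, with 5 lower without Kupffer-niche replicate 1 and 1 higher without Kupffer-niche replicate 2. The TPM scale with a pseudocount of 1 called 6 of them higher and 5 lower, so the balance depends on the scale. Il18 was 4.81-fold lower, and its decoy receptor gene Il18bp had 74.5 and 45.2 CPM in Ly6C-low cells and 792 and 740 CPM in Kupffer-niche cells (12.8-fold lower). Tnf and Il1b were not called (log2 0.00 ± 0.47 and log2 0.15 ± 0.17). Of 26 chemokine genes, 6 were higher and 6 lower, with 3 and 3 without Kupffer-niche replicate 1, and 3 and 3 lower without Ly6C-low replicate 1 and replicate 2. Ccl24, an eosinophil attractant, had 2.97 and 4.38 CPM in Ly6C-low cells against 67 and 74.6 CPM in Kupffer-niche cells (19.6-fold lower), Pf4 was 6.07-fold lower and Ccl5 3.17-fold higher.

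Levels in other sorted groups are given as descriptions with no test. The set also held 2 libraries each of Ly6C-high recruited macrophages (CD11b-Hi Ly6C-Hi), blood Ly6C-high monocytes and Tim4-positive Kupffer cells, all from C57BL/6J mice on the NASH diet, and of Kupffer cells from healthy mice on control diet. Clec4f averaged 41.6 ± 5.12 CPM in Ly6C-low cells and 2993 ± 457 CPM in Kupffer-niche cells (SD, n = 2 each), against 5596 CPM in NASH Kupffer cells and 8375 CPM in healthy Kupffer cells. Hey1 averaged 3.09 CPM in Ly6C-low cells and 51.8 CPM in Kupffer-niche cells, against 69.6 CPM in NASH Kupffer cells and 16.2 CPM in healthy Kupffer cells. Mgl2, Flt3, Zbtb46, Ccr7, Ccl22 and H2-Oa had their highest mean of the 6 groups in Ly6C-low cells. Mgl2 averaged 71 CPM there, 2.99 CPM in Ly6C-high recruited macrophages and 0.275 CPM in blood monocytes. Fn1, S100a4, Ace, S1pr5, Lsp1 and Spn had their highest mean in blood monocytes. Fn1 averaged 1200 CPM in Ly6C-low cells, 9120 CPM in Ly6C-high cells and 12001 CPM in blood monocytes, and Ace 569, 593 and 768 CPM in the same order.

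**Figure D4:**
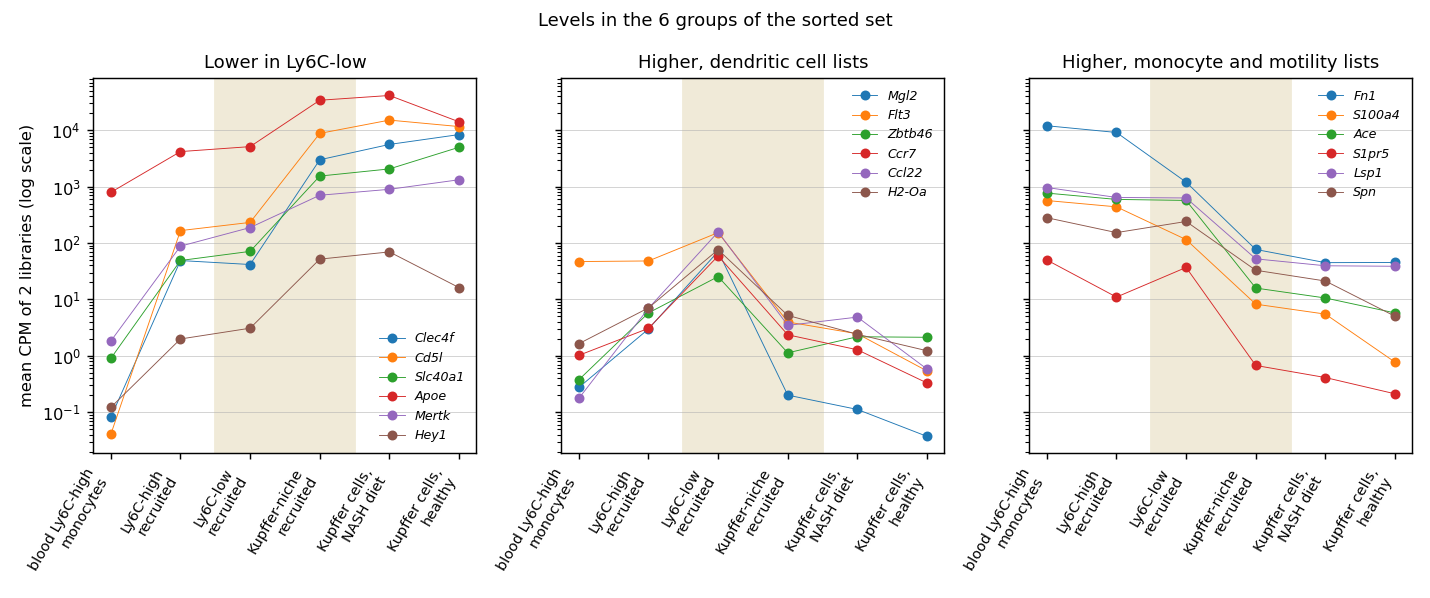
Mean CPM of 2 libraries (log axis) in each group of the sorted set, with Ly6C-low and Kupffer-niche cells in the shaded band and lines joining the points of a gene. Clec4f reaches 2993 CPM in Kupffer-niche cells and more in Kupffer cells, Mgl2 peaks at 71 CPM in Ly6C-low cells, and Fn1 is highest in blood monocytes.

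Kupffer-niche recruited macrophages were also sorted from Cre-negative mice with floxed LXRα and LXRβ alleles after 20 weeks of NASH diet (3 libraries), and their deposited TPM are set beside those of the C57BL/6J cells. Clec4f averaged 26.8 TPM in Ly6C-low cells, 1531 ± 234 TPM in Kupffer-niche cells and 1062 ± 321 TPM in the Cre-negative Kupffer-niche cells. Mgl2 averaged 71.3, 0.16 and 0.0973 TPM in the same order of groups, and Ccl22 134, 2.35 and 2.85 TPM. Both sets of Kupffer-niche cells thus lay far below Ly6C-low cells for these 2 genes. Apoe averaged 6232 TPM in Ly6C-low cells, 32806 ± 2915 TPM in Kupffer-niche cells and 1448 ± 679 TPM in the Cre-negative cells, which lay below Ly6C-low cells. Pltp averaged 570, 2200 and 469 TPM, and Ctsd 1551, 3749 and 1285 TPM. Genotype and set differ between these groups and cannot be told apart.

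Markers of other liver cells were examined beside these results. Of 16 sinusoidal endothelial markers, 13 were higher in Ly6C-low cells and 1, Stab2, was lower (median log2 1.63). Their summed level was 1139 and 1244 CPM in Ly6C-low cells and 712 and 687 CPM in Kupffer-niche cells. Without Stab2, which had 78.3 and 85.6 CPM in Ly6C-low cells and 361 and 299 CPM in Kupffer-niche cells, the sum was 1061 and 1158 CPM in Ly6C-low cells against 351 and 389 CPM in Kupffer-niche cells. Ptprb, an endothelial phosphatase, had 83.2 and 116 CPM in Ly6C-low cells and 25.4 and 34.3 CPM in Kupffer-niche cells, Kdr, a VEGF receptor, was 3.38-fold higher, and Pecam1 was not called (log2 -0.00 ± 0.17). None of these markers was at 0 in any of the 4 libraries. Their part in the genes called higher was not tested, and Lyve1, Gpr182, Bmp2, Clec4g and Fcgr2b belong to that list. Hepatocyte markers summed to 769 and 980 CPM in Ly6C-low cells and 1419 and 1851 CPM in Kupffer-niche cells, of which Trf, which macrophages also express, gave 593 and 571 CPM and 1312 and 1395 CPM. Stellate markers summed to 211 and 393 CPM in Ly6C-low cells and 241 and 542 CPM in Kupffer-niche cells. Of 12 B and plasma cell markers, 4 were higher, with 0, 1 and 0 called by edgeR without Ly6C-low replicate 1, Kupffer-niche replicate 1 and Kupffer-niche replicate 2. Of 14 T and NK cell markers 1 was higher, Cd4, which dendritic cells and macrophages can also express. Of 12 neutrophil markers, 6 were lower in Ly6C-low cells, 4 of them at least 4-fold (median log2 -1.48). Some lay near the floor, with Camp averaging 0.0203 CPM in Ly6C-low cells and 0.366 CPM in Kupffer-niche cells, and Elane 0 and 0.26 CPM. The calls of Camp, Elane, Mpo, Mmp8 and S100a9 ended without Kupffer-niche replicate 1 (log2 -3.65, -4.19, -2.64, -1.19 and -2.09). With DESeq2, 3 were lower, and 2 with only the 4 libraries of both populations. The list summed to 171 and 198 CPM in Ly6C-low cells and 177 and 157 CPM in Kupffer-niche cells. Most of these sums came from Csf3r, with means of 165 and 129 CPM. Ly6g, also on that list, was at 0 in 3 of the 4 libraries, and the mast cell markers Mcpt4 and Ms4a2 in all 4. Erythroid and platelet markers, Pf4 included, summed to 15.2 and 15.4 CPM in Ly6C-low cells against 70.5 and 78.1 CPM in Kupffer-niche cells.

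**Figure D5:**
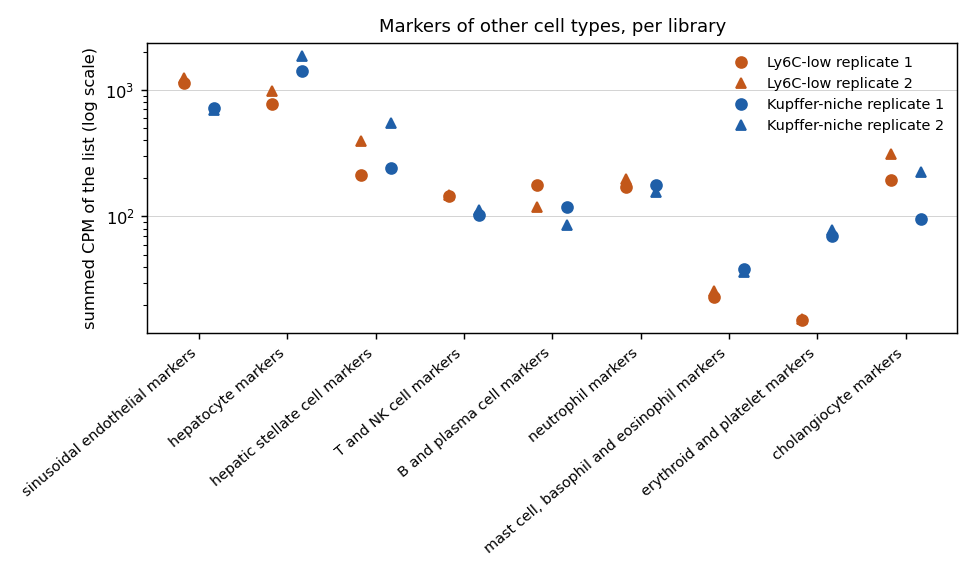
Summed CPM (log axis) of each list of markers of other liver cells in each library, with Ly6C-low to the left of Kupffer-niche cells. Sinusoidal endothelial markers lie at 1139 and 1244 CPM in Ly6C-low cells, above 712 and 687 CPM in Kupffer-niche cells.

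Most proliferation and stress genes were not called, where 15.3% of all genes tested were called higher and 18.1% lower. Of 24 cell cycle genes, 5 were lower, with 3, 1 and 0 called by edgeR without Ly6C-low replicate 1, Ly6C-low replicate 2 and Kupffer-niche replicate 1. The TPM scale with a pseudocount of 1 called 3 higher and 3 lower. Mki67, a marker of dividing cells, had 149 and 147 CPM in Ly6C-low cells and 142 and 142 CPM in Kupffer-niche cells (log2 0.07 ± 0.13). Of 20 immediate early and stress genes, 2 were higher, Nr4a1 (3.43-fold) and Nr4a3 (13-fold), which encode related nuclear receptors, and 1 was lower, Jund (2 without Kupffer-niche replicate 2). The TPM scale with a pseudocount of 1 called 4 higher. The heat shock gene Hspa1a had 467 and 75.1 CPM in Ly6C-low cells against 460 and 57.9 CPM in Kupffer-niche cells (log2 0.07 ± 1.14). Replicate 1 lay far above replicate 2 in both populations.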

How the data were processed

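RNA was sequenced from sorted liver macrophages. Per the file headers, the authors counted reads over exons of RefSeq transcripts on mm10 with HOMER, and deposited raw counts and TPM; STAR and DESeq2 are also named in the submitters' processing notes. Each symbol was represented by its transcript of highest summed count. The 12 libraries of the sorted set, in 6 groups, were fitted together with edgeR 4.0.16 in R 4.3.3 (TMM scaling, quasi-likelihood test). Genes were filtered by filterByExpr with a minimum count of 10 and a minimum total of 15. A gene kept by this filter need not reach 10 counts in every library. The p-values were adjusted by Benjamini-Hochberg over 14407 genes. The fit was tested on simulated data. Alternatives were DESeq2 1.42.0, limma 3.58.1 on log2 TPM, other scalings and filters, the 4 libraries alone, a replicate block and each library left out. A gene is called at an adjusted p under 0.05. Folds are Ly6C-low over Kupffer-niche. Genes named are the 12 of largest change in each direction reaching 20 CPM, and members of gene lists. The members and lists were chosen with earlier results of these data known. Some genes of these lists are not reported here.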

Additional observations from a re-analysis of the deposited data

How the results depend on the processing

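The number of genes called stayed within 1.5 times of 4804 under other scalings, filters, tools and transcripts. No gene called in both fits changed direction in any of them. Of the 4804 genes, 3658 and 3666 were called again on the TPM scale with pseudocounts of 1 and 0.1, so similar totals hold different genes. Leaving out 1 library gave 2851 to 3607 calls, 1288 to 1660 higher and 1563 to 1947 lower, the fewest without Kupffer-niche replicate 1. The TPM scale gave 4652 higher and 1501 lower with a pseudocount of 1, 4460 and 1480 with 0.1, and 352 genes at least 4-fold apart with a pseudocount of 1, against 834; the cause was not tested. Replicate numbers are shared by the populations, and the differences of replicate 1 minus 2 correlated across genes (0.49), but nothing says that a number marks a shared animal. A fit with the replicate block called 5237 genes, 4788 of them also called without it. With 2 libraries a population, a gene that was not called is not shown to be equal in both.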

Other observations

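Interferon genes that were called were all lower, while innate sensing genes were called in both directions. Of 22 interferon-stimulated genes, 8 were lower and 0 higher (median log2 -0.62), where 18.1% of all genes tested were called lower. Bst2, which tethers virus particles, had 58.6 and 42 CPM in Ly6C-low cells and 262 and 205 CPM in Kupffer-niche cells (4.63-fold lower), and Isg15, a ubiquitin-like protein, was 3.29-fold lower. Of 18 Toll-like receptor pathway genes, 3 were higher and 4 lower, a share near the 33.3% called of all genes. The TPM scale called 5 higher and 1 lower, which turns the balance. Tlr5, the flagellin receptor, had 3.33 and 3.43 CPM in Ly6C-low cells against 0.221 and 0.468 CPM in Kupffer-niche cells (9.88-fold higher), and Tlr12, a sensor of profilin in mice, was 4.84-fold lower. Among Fc receptors, the inhibitory Fcgr2b was 4.37-fold higher and the activating Fcgr1 and Fcgr3 1.99-fold and 2.23-fold lower. Fcgr2b is also an endothelial marker, and the part of such RNA was not tested.

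Other lectin and scavenger receptors split by member. Clec4e, the receptor Mincle, had 24.9 and 32.4 CPM in Ly6C-low cells and 2.7 and 2.74 CPM in Kupffer-niche cells (10.5-fold higher). Mrc1, the mannose receptor, had 314 and 263 CPM in Ly6C-low cells against 1016 and 1020 CPM in Kupffer-niche cells (3.53-fold lower), and the scavenger receptor genes Msr1 and Scarf1 were 2.89-fold and 4.89-fold lower. Srebf2, a regulator of cholesterol synthesis, was 2.29-fold higher.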
